A study of Mus musculus with 12 samples.

Results

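The 10 genes described here license replication origins or mark S phase: Mcm2, Mcm3, Mcm4, Mcm5, Mcm6, Mcm7, Pcna, Rrm1, Rrm2 and Tyms. They were taken by symbol from the gene column of the count table. All 10 were found among its 39331 gene entries, and all 10 passed the filter on low counts that left 15606 genes. The RNA came from heart tissue of untreated mice (strain C57BL/6N, age 9 months) and gave 6 wild-type (WT) libraries and 6 from Lemd2 p.L13R knock-in (KI) animals. In KI, residue 13 of the inner nuclear membrane protein LEMD2 is arginine in place of leucine. Whether the KI animals carried 1 or both copies, and which chambers were sampled, is not given in the sources used here.

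Before a cell copies its DNA, the ring of MCM2 to MCM7 is loaded on origins in an inactive form, which is called licensing, and in S phase the ring becomes the core of the replicative helicase. PCNA is the sliding clamp that holds DNA polymerases on the template. RRM1 and RRM2 form ribonucleotide reductase, which makes deoxynucleotides, and TYMS makes thymidylate. Many of these genes are targets of E2F transcription factors and fall silent when cells leave the cycle. Adult mouse cardiomyocytes seldom divide, and most cycling cells of the adult heart are non-myocytes.

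Total counts ran from 38266466 to 44559350 in WT and from 27867517 to 42885258 in KI, and the 10 genes had between 57 and 1075 counts in a library. Genes of the mitochondrial chromosome took 34.0% to 40.4% of the counts in WT and 30.9% to 33.9% in KI. The lowest totals were those of KI 3, KI 4 and KI 5, whose titles share an age tag and carry consecutive numbers. The titles of KI 1 and KI 2 join 2 animal or sample numbers each, and those of KI 2 and KI 6 carry the tags old and new, which the sources used here do not explain. No pair of libraries held identical values. Markers of cardiomyocytes summed to 44720 CPM or more in every library (CPM, counts per 1e+06 scaled by TMM factors).

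The starts of 9 of the 10 genes, all except Mcm4, were in the RefSeq promoter table (GRCm38.p6, 250 bases before to 50 after a start), as 10 promoters, since Mcm7 has a pair of starts. E2F words (TTTCCCGC, TTTCGCGC, TTTGCCGC or TTTGGCGC, on either strand) were found at 4 of these genes, Mcm3, Mcm5, Mcm6 and Mcm7, and at 2.26% of all 32851 promoters. CCAAT, the word that NF-Y binds, was found on either strand at 8 of the 9 genes, all except Tyms, and at 37.4% of all promoters. The GC box GGGCGG was found at 7 of the 9 and at 35.7% of all. A word match is a description of the sequence and not evidence that a factor binds there. The stretches with E2F words are shown because 3 of these 4 genes passed the test described next, and Rrm2 is shown as the gene with the largest fold change. Capitals mark E2F words and CCAAT on either strand, and positions count from the start, which is 1.
Mcm3 at chr1:20820265-20820294, minus strand, positions 19 to 48: gGCGGGAAAacttgggaagtTTTGGCGCca
Mcm5 at chr8:75109259-75109467, plus strand, positions -250 to -42: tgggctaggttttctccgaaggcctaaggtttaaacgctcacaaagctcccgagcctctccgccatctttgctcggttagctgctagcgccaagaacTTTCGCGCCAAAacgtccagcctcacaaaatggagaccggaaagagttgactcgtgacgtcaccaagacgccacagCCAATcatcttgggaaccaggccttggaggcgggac
Mcm6 at chr1:128359706-128359955, minus strand, positions -250 to -1: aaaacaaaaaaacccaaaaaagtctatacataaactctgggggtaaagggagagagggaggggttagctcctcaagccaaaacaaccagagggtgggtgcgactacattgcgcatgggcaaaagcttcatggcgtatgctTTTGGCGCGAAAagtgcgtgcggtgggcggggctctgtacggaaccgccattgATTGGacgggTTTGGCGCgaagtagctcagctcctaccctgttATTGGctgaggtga
Mcm7 at chr5:138172030-138172059, minus strand, positions -176 to -147: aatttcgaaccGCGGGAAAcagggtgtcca
Mcm7 at chr5:138171849-138171878, minus strand, positions 6 to 35: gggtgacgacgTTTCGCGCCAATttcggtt
Rrm2 at chr12:24708004-24708253, plus strand, positions -250 to -1: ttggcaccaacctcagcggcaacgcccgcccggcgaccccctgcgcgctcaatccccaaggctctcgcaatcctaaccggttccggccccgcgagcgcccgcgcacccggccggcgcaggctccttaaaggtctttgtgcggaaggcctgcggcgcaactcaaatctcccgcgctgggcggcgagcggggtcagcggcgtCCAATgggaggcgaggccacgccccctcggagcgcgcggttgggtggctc
In Mcm5 and in the distal pair of Mcm6, an E2F word on 1 strand overlaps one on the other, so the capitals run on as a single block. In Mcm7 the E2F word that starts at position 17 shares its last base with a CCAAT. The Mcm5 stretch ends where the annotated gene span begins, 42 bases before the start in the table.

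KI was set against WT to measure how the 10 transcripts differ between the genotypes. All 10 genes had a higher mean in KI, and 4 of the MCM genes, Mcm2, Mcm3, Mcm5 and Mcm6, passed the test (edgeR quasi-likelihood, Benjamini-Hochberg adjusted p under 0.05 over all genes tested), all of them higher. Of all genes tested, 4.46% were called higher and 4.34% lower, 8.8% in all. The count of members called lower was 0 by edgeR, DESeq2 and voom, and 0 were lower at an unadjusted p under 0.05. At that level 8 of the 10 were higher, against 12.8% of all genes tested. The median log2 fold change of the 10 was 0.44, and that of all genes tested was 0.01. In 7 of the 10 every KI library lay above the WT mean of log2 CPM, which held for 14.1% of all genes. In bulk tissue, more cells that express a gene and more RNA per cell cannot be told apart.

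Mcm3 (Gene ID 17215; on the minus strand of chromosome 1 from 20802966 to 20820312 in GRCm38.p6, the build of all positions here), a subunit of the ring, had a lowest, median and highest value of 4.70, 5.27 and 6.47 CPM in WT and of 7.06, 7.49 and 9.23 CPM in KI. The groups did not overlap, which was true of 1 of the 10 genes and, in this direction, of 2.14% of all genes. Mcm3 rose by 0.57 on the log2 scale (SE 0.10, adjusted p = 0.00521, n = 6 each), from 5.31 ± 0.645 to 7.89 ± 0.853 CPM (SD). It passed the threshold in all 24 alternative fits, at 0.45 to 0.72.

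Mcm5 (Gene ID 17218, chromosome 8, 75109468 to 75128439, plus strand), which pairs with Mcm2 at the gate of the ring, ran from 2.46 over a median of 3.39 to 4.43 CPM in WT. In KI it ran from 4.38 over a median of 5.61 to 7.17 CPM, so that only KI 3 and KI 5 lay under the highest WT library. It rose by 0.74 on the log2 scale (SE 0.16, adjusted p = 0.0146), the largest rise among Mcm2 to Mcm7. Mcm5 passed in all 12 fits that left out 1 library and in 22 of the 24 alternatives. It missed the threshold with the replicate block (adjusted p = 0.0655) and with KI 3, KI 4 and KI 5 alone (adjusted p = 0.0996).

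Mcm6 (Gene ID 17219, chromosome 1, 128331575 to 128359705, minus strand), another ring subunit, had a lowest, median and highest value of 6.23, 8.30 and 10.4 CPM in WT. The KI values were 9.61, 11.0 and 13.7 CPM, with WT 5 inside the KI range. It rose by 0.45 (SE 0.12, adjusted p = 0.0333). Mcm2 (Gene ID 17216, chromosome 6, 88883474 to 88898780, minus strand), the subunit that also binds histones, had values of 5.75, 7.91 and 9.08 CPM in WT. In KI they were 8.03, 10.7 and 12.5 CPM, and KI 3 lay inside the WT range. Mcm2 rose by 0.47 (SE 0.13, adjusted p = 0.0430). Both calls lie close to the threshold: without 1 library Mcm6 missed it 5 times (without WT 2, WT 6, KI 2, KI 3 or KI 6, highest adjusted p = 0.0801) and Mcm2 kept it only without WT 3, WT 5 or KI 3 (highest adjusted p = 0.0999).

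Mcm7 (Gene ID 17220, chromosome 5, 138164583 to 138172111, minus strand), the ring subunit whose introns hold the microRNA genes Mir25, Mir93 and Mir106b, had values of 5.25, 7.82 and 8.41 CPM in WT and of 7.94, 9.84 and 12.7 CPM in KI. The WT range took in KI 4 and KI 5, with the other KI libraries above it. The difference, 0.44 (SE 0.13), missed the threshold (adjusted p = 0.0584). The largest of the same-strand microRNA entries, Mir25, came to 0.199% of the Mcm7 counts over all libraries. Mcm4 (Gene ID 17217, chromosome 16, 15623897 to 15637400, minus strand), the ring subunit that carries much of the regulatory phosphorylation, had values of 6.53, 8.54 and 9.26 CPM in WT and of 8.05, 9.08 and 10.9 CPM in KI. Its groups overlapped widely, with KI 2 and KI 6 alone above every WT library, and the difference did not pass the test (log2 fold change 0.22, SE 0.11, adjusted p = 0.223). 

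**Figure D1:**
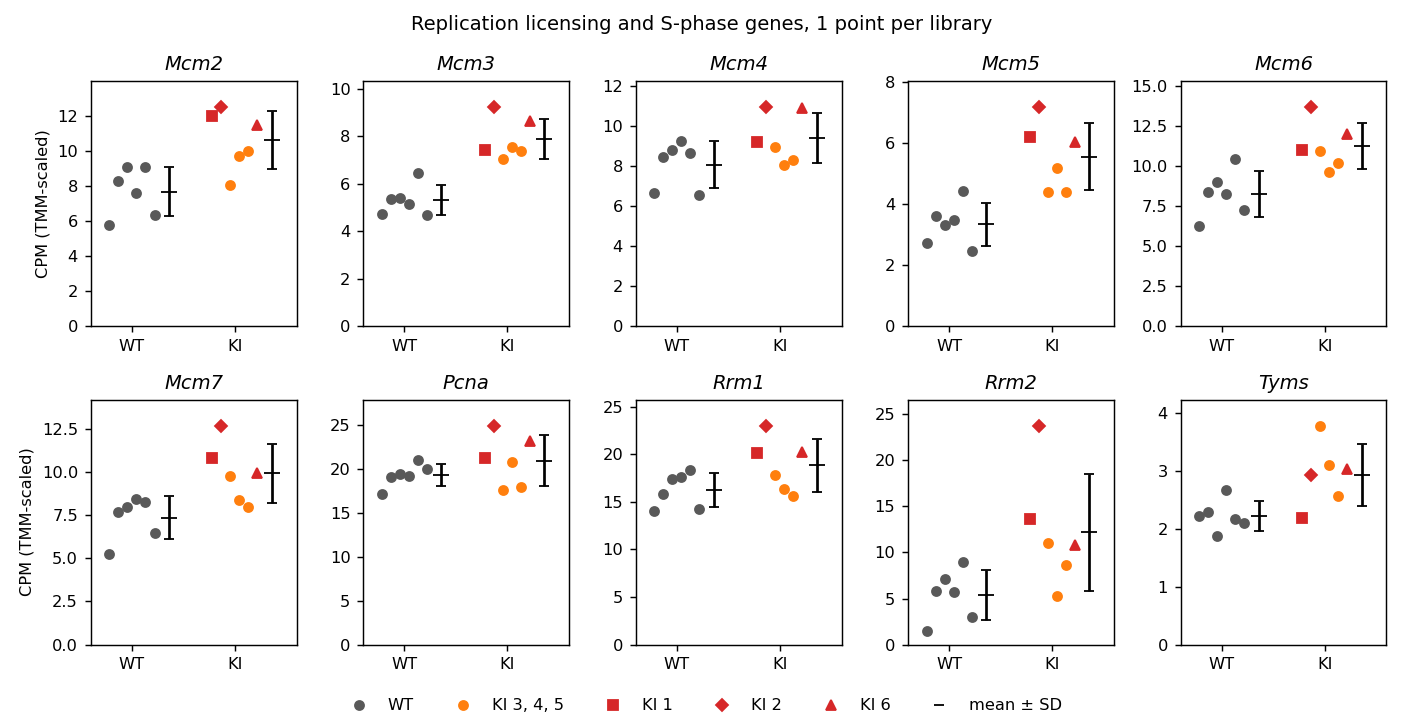
CPM of each of the 10 genes (y axis, linear from 0, own scale per gene) in the 6 WT and 6 KI libraries, 1 point per library, with the mean and SD as a bar beside each group. For Mcm3 the KI points, 7.06 to 9.23 CPM, lie above all WT points, and KI 2 is the highest point for every gene except Tyms.

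Rrm2 (Gene ID 20135, chromosome 12, 24708254 to 24714146, plus strand), the small subunit of ribonucleotide reductase that is made in S phase, had the largest fold change and the widest spread of the 10. Its lowest, median and highest values were 1.46, 5.79 and 8.94 CPM in WT and 5.24, 10.9 and 23.8 CPM in KI. The low WT values were those of WT 1 and WT 6 (3.04 CPM), and the high KI value was that of KI 2. The mean was 5.36 ± 2.72 CPM in WT and 12.2 ± 6.33 in KI (SD, n = 6 each), and the log2 fold change of 1.19 (SE 0.39) did not pass the threshold (adjusted p = 0.0731). Without KI 2 it was 0.88 (adjusted p = 0.147). Rrm2b, the alternative small subunit that p53 induces and non-dividing cells use, was chosen after its values were seen. It was at 50.2 ± 2.23 CPM in WT and 46.1 ± 1.70 in KI (SD; log2 fold change -0.12, SE 0.04, adjusted p = 0.0940), and the sign turned to 0.03 when libraries were scaled by their totals alone.

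Rrm1 (Gene ID 20133, chromosome 7, 102441695 to 102469771, plus strand), the large subunit, had values of 14.0, 16.6 and 18.3 CPM in WT and of 15.7, 19.0 and 23.0 CPM in KI (log2 fold change 0.22, SE 0.10, adjusted p = 0.191). Values of KI 3, KI 4 and KI 5 were within the WT range, and the other KI libraries above it. Pcna (Gene ID 18538, chromosome 2, 132249286 to 132253180, minus strand) had values of 17.1, 19.3 and 21.0 CPM in WT and of 17.6, 21.0 and 24.9 CPM in KI, with the same 3 libraries within the WT range. The fold change of Pcna, 0.12 on the log2 scale, was the smallest of the 10 (SE 0.08, adjusted p = 0.402). Tyms (Gene ID 22171, chromosome 5, 30038546 to 30073645, minus strand) had values of 1.87, 2.19 and 2.66 CPM in WT and of 2.18, 2.98 and 3.78 CPM in KI. KI 3 was its highest library and KI 1 its lowest in KI, an order unlike that of the other genes. The difference of 0.40 (SE 0.14) missed the threshold (adjusted p = 0.0823).

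Libraries of 1 genotype differed among themselves. KI 2 was the highest of the 12 libraries for 9 of them, and among the 3 highest libraries KI 6 stood for 9 genes and KI 1 for 7. WT 1 and WT 6 were each among the 3 lowest for 9 genes. The 10 genes together summed to 66.2 CPM in WT 1 and 73.1 in WT 6, and to between 84.8 and 97.7 in the other WT libraries. In KI the sum was 92.9 to 99.3 CPM in KI 3, KI 4 and KI 5, 114 in KI 1, 116 in KI 6 and 141 in KI 2. With KI 1, KI 2 and KI 6 alone against WT, 2 of the 10 genes were called higher, Mcm3 and Mcm5, where 0.433% of all genes were called higher and 0.144% lower. With KI 3, KI 4 and KI 5 alone against WT, 1 was called higher, Mcm3 (0.45, SE 0.11, adjusted p = 0.0255), where 4.96% of all genes were called higher and 7.41% lower. Side by side, the first and the second comparison gave 0.95 and 0.46 for Mcm5, 0.64 and 0.25 for Mcm2, 1.58 and 0.60 for Rrm2, and 0.38 and 0.01 for Rrm1. Pcna was at 0.26 and -0.059. Tyms had the opposite order, at 0.29 and 0.48. The comparisons share their WT libraries, and the difference between the 2 sets of KI libraries was not tested. KI 3, KI 4 and KI 5, lower on average for the genes other than Tyms, are those with the lowest total counts and an age tag in the library name. Those features and the level cannot be told apart within KI.

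**Figure D2:**
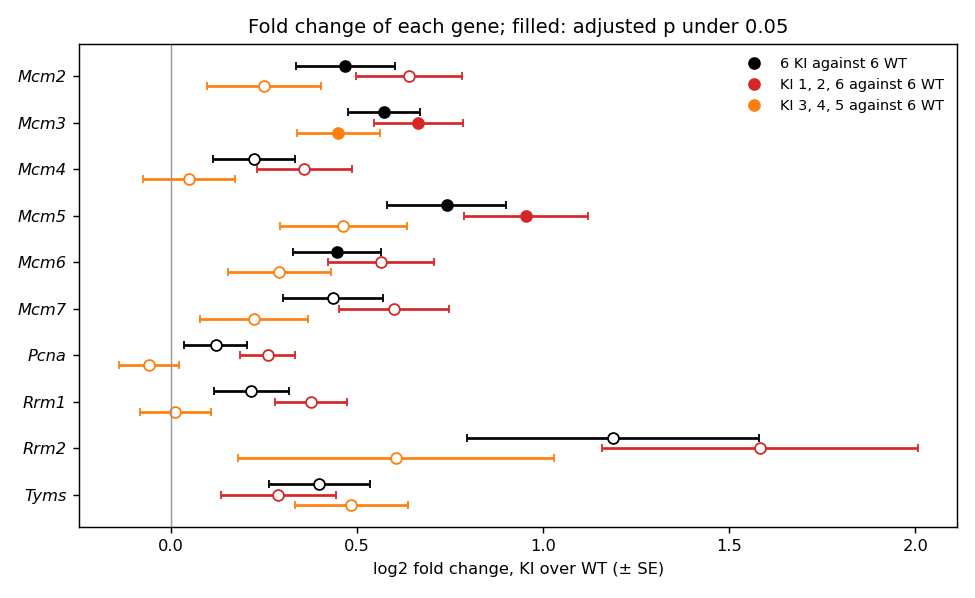
Log2 fold change of each gene with its SE, for all 6 KI libraries (black), for KI 1, 2 and 6 (red) and for KI 3, 4 and 5 (orange), each against the 6 WT libraries. Filled points passed the threshold, and Mcm3 is the one gene filled in all 3 fits.

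**Figure D3:**
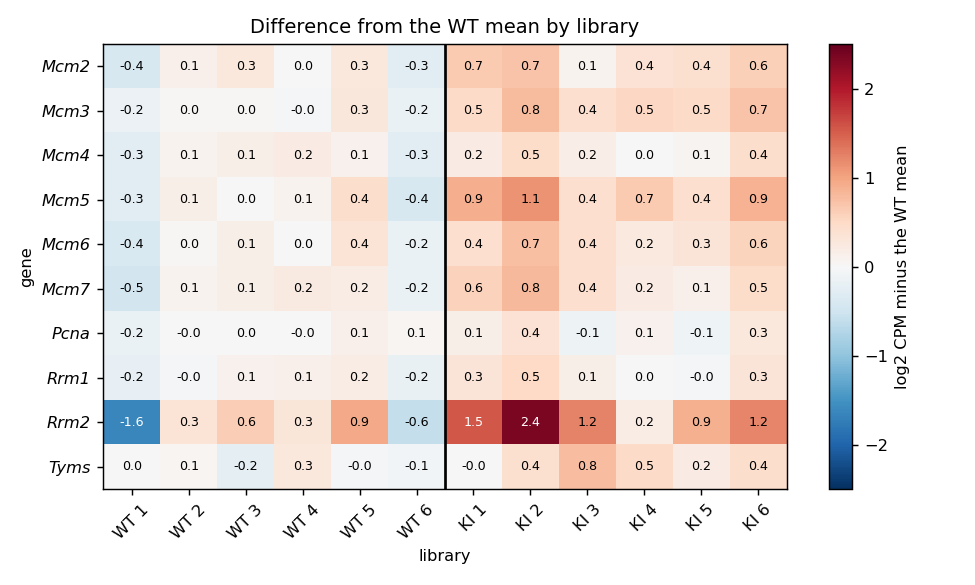
Log2 CPM of each gene in each library minus the mean of the 6 WT libraries, printed in each cell and to 1 decimal and coloured from blue (lower) to red (higher). WT 1 and WT 6 are blue for most genes, and KI 2 reaches the largest difference, in Rrm2.

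Among themselves the genes moved together from library to library, apart from Tyms. After subtraction of each group's mean, the 45 pairs of genes had a median Pearson r of 0.76 over the 12 libraries (range -0.45 to 0.95), and 38 pairs were positive. Within the 6 WT libraries alone the median was 0.82, and within the 6 KI libraries 0.75. Each gene was also set against the mean of the other members: r was 0.94 for Rrm1, 0.93 for Mcm6 and 0.91 for Mcm7, 0.72 for Pcna and -0.11 for Tyms. These values describe libraries that share depth and scaling, and carry no test. The group-centred total count had an r of 0.58 with the mean of the members, and its part in the shared variation was not tested.

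The 6 other genes with the most similar pattern, by group-centred r with the mean of the members over the 12 libraries among 13444 genes, were Mastl (0.95), Anln (0.94), Mki67 (0.94), D17H6S56E-5 (0.92), Ncapg2 (0.92) and Uhrf1 (0.92). Mastl encodes the mitotic kinase Greatwall, Anln the cytokinesis protein anillin, Mki67 the proliferation antigen Ki-67, Ncapg2 a condensin II subunit and Uhrf1 a factor that copies DNA methylation to new strands. Mki67 went from 9.37 ± 3.49 CPM in WT to 19.4 ± 7.10 in KI (SD; log2 fold change 1.05, SE 0.27, adjusted p = 0.0285). WT 1 (4.98 CPM) and WT 6 (5.58) were its lowest libraries and KI 2 (32.7) its highest. Without WT 2, WT 3, WT 6 or KI 3 it missed the threshold (highest adjusted p = 0.0599). Mastl (1.00, SE 0.24), Anln (1.04, SE 0.26), D17H6S56E-5 (0.96, SE 0.18) and Uhrf1 (1.10, SE 0.23) also rose. Ncapg2, at 0.45 (SE 0.16, adjusted p = 0.0942), did not pass. Mastl missed the threshold without WT 2 or WT 6, and Anln without WT 2, WT 3, WT 6 or KI 3. The 6 genes that came next in the ranking, named after their values were seen, did not pass the threshold. With r and log2 fold change, they were Gm38910 (0.92, -0.23), Ckap2l (0.91, 1.21), Ccna2 (0.91, 1.125), Scaf8 (0.91, -0.06), Dnmt1 (0.90, 0.24) and Zfp407 (0.90, -0.02). Further down the ranking some genes passed and others did not. The first of those that passed was Nuf2 (0.90, 1.15, adjusted p = 0.0466), directly after Zfp407.

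**Figure D4:**
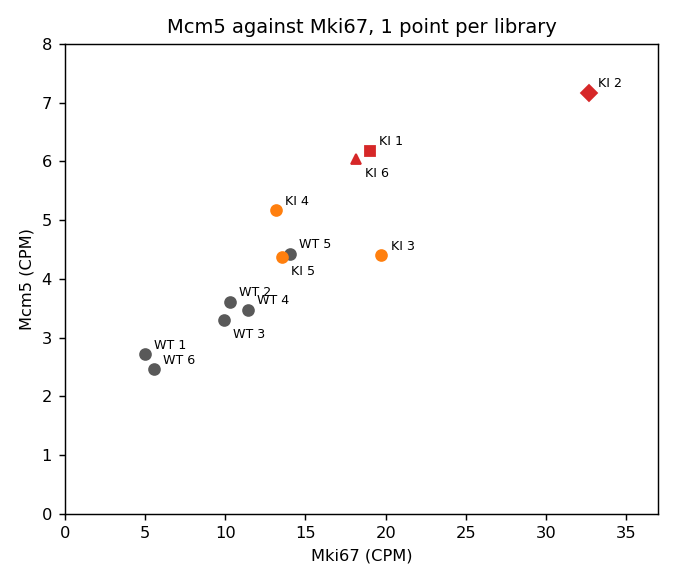
CPM of Mcm5 (y axis) against CPM of Mki67 (x axis), both linear from 0, 1 labelled point per library, with WT in grey, KI 1, 2 and 6 in red and KI 3, 4 and 5 in orange. WT 1 and WT 6 lie at the lower left and KI 2, at 32.7 and 7.17 CPM, at the upper right.

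Other genes of the replication pathway were taken from lists. Beside the counts of these lists, edgeR called 4.46% of all genes tested higher and 4.34% lower. Over all genes, DESeq2 called 980 higher and voom 1014. In licensing and origin firing, 4 of 27 genes tested rose and 1 fell, with a median log2 fold change of 0.17. Gins2, a subunit of the active helicase, went up without overlap of the groups, from 0.791 ± 0.111 CPM in WT to 1.36 ± 0.284 in KI (SD), a rise of 0.78 (SE 0.17, adjusted p = 0.0139). Ticrr, which fires origins, rose by 0.90 (SE 0.22), between low means of 0.194 CPM in WT and 0.369 in KI. Clspn, a fork and checkpoint protein, rose by 1.02 (SE 0.25), from a mean of 0.760 to 1.54 CPM. Mcm10, which helps activate the helicase and was chosen after its values were seen, rose by 1.10 (SE 0.27), from a mean of 0.362 to 0.787 CPM. Gins2 passed in all 12 fits without 1 library. Ticrr missed the threshold without WT 6 or KI 3, Clspn without WT 2 or WT 6, and Mcm10 without WT 2, WT 5, WT 6 or KI 3. Orc3, a subunit of the origin recognition complex that loads the ring, fell from 34.9 ± 0.772 to 29.9 ± 2.46 CPM (SD; -0.22, SE 0.05, adjusted p = 0.0242). Orc3 kept that call in 6 of the 12 fits without 1 library, missing it without WT 2, WT 3, WT 6, KI 3, KI 4 or KI 5. The genes called higher were 2 without WT 2 or KI 3, 1 without WT 6 and 0 with KI 1, KI 2 and KI 6 alone. Where genes needed a CPM above 1 in at least 6 libraries, 2 of 23 tested were called higher.

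In the list of fork proteins and polymerases, 0 of 30 genes passed by edgeR (6 were higher and 1 lower at an unadjusted p under 0.05), with a median of 0.12. DESeq2 called 2 higher, and voom 1 higher and 1 lower. By edgeR, 9 were called higher under scaling by library totals, 2 without WT 4, 2 with 1 surrogate variable, and 1 without WT 5 or KI 5. The most abundant were Rpa1, which coats single-stranded DNA (0.02, SE 0.08, adjusted p = 0.889), and Rfc1, the large subunit of the clamp loader (-0.15, SE 0.06, adjusted p = 0.150). In deoxynucleotide supply 1 of 19 genes rose, near the share of 4.46% of all genes tested, and the list median was 0.14. The gene was the thymidine kinase gene Tk1, at 0.79 (SE 0.19, adjusted p = 0.0227). Tk1 was at 1.55 ± 0.296 CPM in WT and 2.68 ± 0.763 in KI (SD), and it missed the threshold without WT 6 or KI 3. The genes called were 0 without WT 6, without KI 3 or with KI 1, KI 2 and KI 6 alone, 2 without KI 1, WT 1, WT 2 or WT 4, and 3 without KI 6. Under scaling by library totals 8 were called. Nme2, a nucleoside diphosphate kinase gene and the most abundant on the list, was at 0.04 (SE 0.05, adjusted p = 0.673).

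Among E2F and G1-S regulators 5 of 30 genes rose and 0 fell by edgeR, with a median of 0.12. The list held 1 gene lower at an adjusted p under 0.05 by DESeq2, which called 8 higher, and 1 by voom, which called 6 higher. E2f1, an activating E2F factor, was at 1.86 ± 0.517 CPM in WT and 3.71 ± 1.28 in KI (SD), a rise of 1.00 (SE 0.23, adjusted p = 0.0215). Foxm1, which drives the genes of mitosis, rose by 1.23 (SE 0.26), and Mybl2, its partner, by 0.85 (SE 0.21). Uhrf1 is on this list as well. Ccnd2, a D-type cyclin chosen after its values were seen, rose by 0.47 (SE 0.13, adjusted p = 0.0409). Foxm1 and Uhrf1 passed in all 12 fits without 1 library. E2f1 missed the threshold without WT 6, Mybl2 without WT 3, WT 6 or KI 3, and Ccnd2 in 9 of the 12. The genes called were 3 without WT 3, 2 without WT 6 and 0 with KI 1, KI 2 and KI 6 alone.

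Genes of G2 and mitosis had a larger median, 1.09, and 14 of 20 rose by edgeR. With all 12 libraries DESeq2 called 18 higher and voom 14, and 0 fell by edgeR, DESeq2 or voom. At an unadjusted p under 0.05, 19 were higher and 1 lower. Tpx2, a spindle assembly factor, was at 2.03 ± 0.724 CPM in WT and 4.30 ± 0.950 in KI (SD), a rise of 1.09 (SE 0.22, adjusted p = 0.0115). Cenpe, a kinetochore motor (1.09, SE 0.25), Aurkb, a mitotic kinase (1.03, SE 0.24) and Birc5, which encodes survivin (1.26, SE 0.30), rose as well. Tpx2, Cenpe and Aurkb passed in all 12 fits without 1 library, and Birc5 missed the threshold without WT 2, WT 6 or KI 3. Cenpf, which encodes a centromere protein and was chosen after its values were seen, stood on the other side at -0.90 (SE 0.30, adjusted p = 0.0773), with 26.8 ± 14.0 CPM in WT, and was called lower without WT 1. The count of genes called higher in this list was 3 without WT 6 or KI 3, 4 without WT 2 and 5 without WT 3. It was 6 without KI 2, 8 without WT 1 and 9 without KI 1 or KI 6. It was 7 with no filter on low counts, 1 with KI 3, KI 4 and KI 5 alone (median 0.72) and 0 with KI 1, KI 2 and KI 6 alone (median 1.29, 18 higher at an unadjusted p under 0.05).

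**Figure D5:**
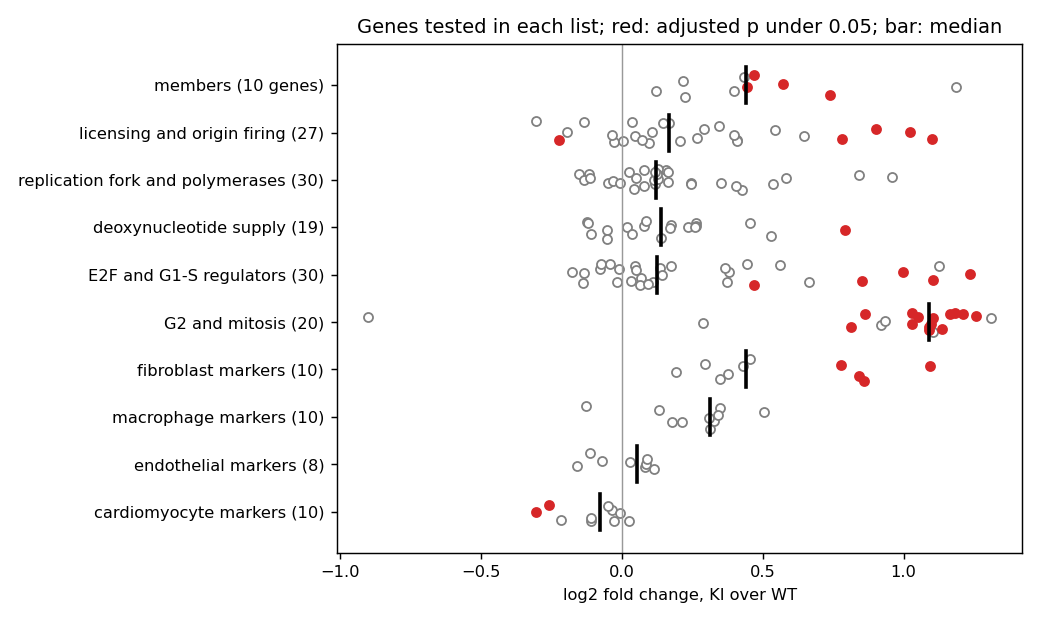
Log2 fold change (x axis) of every gene tested in the 10 members, 5 pathway lists and 4 lists of cell type markers, 1 point per gene, filled red where the adjusted p was under 0.05, with the list median as a bar. The G2 and mitosis genes gather near 1.09, the members near 0.44 and the cardiomyocyte markers at -0.08.

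Markers of other cell types were read beside these genes. Fibroblast markers had a median of 0.44, and 4 of 10 rose, Mfap5, Col1a2, Pi16 and Col1a1. Their summed level was 1531 to 1864 CPM in WT and 1564 to 3268 CPM in KI, with 2216 in KI 1, 1564 in KI 2 and 3268 in KI 6, the libraries most often highest for the replication genes, and 1946 to 2432 in KI 3, KI 4 and KI 5. Gsn (mean 946 CPM in WT) and Dcn (416 CPM) were the most abundant of the 10 and weighed most in this sum. In KI 2, Col1a1 (106 CPM) and Col1a2 (154 CPM) lay above every WT library. Mfap5, Pi16, Dcn, Lum and Tcf21 were inside the WT range there, and Gsn (721 CPM), Pdgfra and Dpt below it. Without KI 2, 8 fibroblast markers were called higher. Macrophage markers had 0 of 10 genes past the edgeR threshold (5 at an unadjusted p under 0.05, 1 by DESeq2 and 0 by voom), with a median of 0.31. Their sum was 243 to 436 CPM in WT and 279 to 411 CPM in KI, with 411 in KI 1, 405 in KI 2 and 380 in KI 6, and 279 to 337 in KI 3, KI 4 and KI 5. The highest sum was that of WT 1, and that of WT 6 was 258. Without WT 1, 3 macrophage markers were called higher, and 6 under scaling by library totals. With KI 1, KI 2 and KI 6 alone against WT the macrophage median was 0.50, with 8 of 10 higher at an unadjusted p under 0.05, and with KI 3, KI 4 and KI 5 alone it was 0.04, with 0 of 10. Endothelial markers (median 0.05, 988 to 1180 CPM in WT and 997 to 1252 in KI) had 0 of 8 called by edgeR and 0 at an unadjusted p under 0.05. Of 10 lymphocyte markers 4 were abundant enough to test, 0 were called, and their sum was 4.11 CPM or less in every library. Cardiomyocyte markers had a median of -0.08, which turned to 0.07 under scaling by library totals, with Tnni3 and Pln called lower. DESeq2 and voom called 3 of these markers lower. The count was 0 without WT 2, WT 5, WT 6 or KI 4, with the replicate block, with no filter and under library totals. Of 6 atrial markers 3 were abundant enough to test, with a median of 2.18, and Nppa, the atrial natriuretic peptide gene that stressed ventricles also express, was at 240 ± 138 CPM in WT and 1091 ± 668 in KI (SD), a rise of 2.18 (SE 0.58, adjusted p = 0.0340). It was not called without any 1 of WT 2, WT 4, WT 5, WT 6, KI 3, KI 4, KI 5 or KI 6. KI 6 stood apart: the atrial light chain gene Myl4 was at 223 CPM there and at 3.08 to 5.32 CPM in the other libraries. Markers of Schwann cells and adipocytes summed to 32.3 CPM in KI 6 and to 2.53 to 7.37 CPM elsewhere, and smooth muscle and pericyte markers to 1105 CPM in KI 6 and to 685 to 887 CPM elsewhere. Without KI 6, 2 of the 10 replication genes were called, Mcm3 and Mcm5. None of the markers on these lists was at 0 in all libraries. After subtraction of each group's mean, log2 sums were also set against the mean of the members over the 12 libraries. The r was 0.06 for macrophage, -0.17 for fibroblast, 0.18 for endothelial, 0.50 for cardiomyocyte and -0.39 for atrial markers. Among the marker lists the largest in size was -0.62, for epicardial and mesothelial markers, which summed to 15.1 CPM or less. The r was 0.30 for lymphocyte, 0.25 for monocyte and neutrophil and 0.10 for erythroid markers. For smooth muscle and pericyte markers it was 0.04, and for Schwann and adipocyte markers -0.05. For the G2 and mitosis list it was 0.84. The part of these cell types in the levels of the replication genes was not tested.

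Levels of the 10 genes were compared per kilobase of merged exons (GENCODE M21, GRCm38), on the CPM scale. Counts cover introns too, so these are approximate. The order also depends on the merged lengths, which take in all annotated transcripts. They were longest for Rrm1 (11012 bases), Mcm2 (6956) and Tyms (6089) and shortest for Pcna (2400). In WT, Pcna was highest at 8.03 ± 0.528 CPM per kilobase (SD, n = 6), above all values of the next gene, Mcm4 (2.24 ± 0.326). From Mcm4 the order ran through Rrm2 (1.93 ± 0.981), Mcm6 (1.77 ± 0.307), Mcm7 (1.66 ± 0.281), Rrm1 (1.48 ± 0.164), Mcm3 (1.42 ± 0.172), Mcm2 (1.10 ± 0.200) and Mcm5 (0.835 ± 0.175), with each neighbouring pair overlapping in range. Tyms was lowest, at 0.364 ± 0.0432, below every value of Mcm5. In KI the order began with Pcna (8.72 ± 1.20) and Rrm2 (4.40 ± 2.29), whose ranges overlapped, and Mcm5 (1.39 ± 0.277) and Tyms (0.481 ± 0.0884) stayed last.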

How the data were processed

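Stranded mRNA libraries, 6 per group, were sequenced. The authors deposited raw expected counts for each gene. The submitters' processing notes name cutadapt 2.5 and STAR 2.7.2b. Per the file headers, the authors counted reads with featureCounts 1.6.4 over whole gene spans, introns included, on the reverse strand (RefSeq, GRCm38.p6), and split reads with several alignments or genes as fractions. Of the nonzero values in a library, 42.4% to 47.5% are therefore not whole. Total counts were 27867517 to 44559350.

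Groups came from the sample labels. Low counts were removed by filterByExpr (edgeR 4.0.16, minimum count 10, minimum total 15), library sizes were scaled by TMM, and KI was compared with WT by the quasi-likelihood test in R 4.3.3 over all 15606 genes, on the fractional counts as deposited. Rounded counts were an alternative. The p values are adjusted by the Benjamini-Hochberg method, with a threshold of 0.05. Log2 CPM used a prior count of 2. Other alternatives were RLE factors, library totals, no mitochondrial genes, no filter and CPM above 1 in 6 libraries. Further ones were DESeq2 1.42.0 on rounded counts, voom (limma 3.58.1), a replicate block and 1 surrogate variable from sva 3.50.0. The last were leaving out every library in turn, and KI 3, 4 and 5 left out or alone. Voom was run with quality weights, which weight the libraries unequally. The fit was tested on simulated data. The labels do not say whether libraries came from separate preparations, so p values cover the spread between these libraries.

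The members and lists were chosen with earlier results of these data known. The genes singled out are the 10 members, up to 4 genes of each pathway list past the threshold with the smallest adjusted p (where fewer than 2 pass, the most abundant make up 2), and the 6 genes with the most similar pattern and an average log2 CPM of at least 0. For other genes the text says that their values were known when they were picked. Figures were drawn with matplotlib 3.10.9.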

Additional observations from a re-analysis of the deposited data

How the results depend on the processing

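The 24 alternatives called 0 members lower, and those with all 12 libraries that are not listed here called 4 to 6 higher. The members called higher were 10 with library totals alone, 2 with no filter, 1 with the replicate block, 2 with KI 3, 4 and 5 left out and 1 with these alone. Leaving out 1 library gave 2 to 4, with 2 without WT 2, WT 6, KI 2 or KI 6. The genes called were not always the same: Mcm2 passed in 10 of the 24 alternatives and Mcm6 in 15. Voom called Tyms (adjusted p = 0.0486) and not Mcm2 (0.0501). Without KI 1, Tyms (0.0359) was called and Mcm2 (0.0764) was not. Without KI 5, Mcm7 (0.0496) was called and Mcm2 (0.0642) was not. DESeq2 also called Mcm7, and the surrogate variable Mcm7 and Rrm2. Library totals moved the median of all genes from 0.01 to 0.16, so that scaling is relative to this shift. Pcna changed sign with KI 3, 4 and 5 alone (-0.059), and the cause was not tested. Over all genes, 2959 were higher and 190 lower with library totals, 433 and 414 with no filter, 220 and 212 with the block, and 69 and 23 with KI 3, 4 and 5 left out. Lower genes were 1065 by DESeq2, 1267 by voom and 1192 with KI 3, 4 and 5 alone. Higher genes were 980 by DESeq2 and 1014 by voom. Without 1 library, 389 to 716 genes were higher and 340 to 827 lower. The fewest higher were 389 without WT 6, 402 without KI 3 and 404 without WT 2. Library totals called 11 licensing, 14 E2F, 19 mitosis and 8 fibroblast genes higher. The block called 0 licensing, 2 E2F and 3 mitosis genes, and no filter 3 E2F genes. The CPM filter called 2 licensing genes, and voom 7 and 3 of deoxynucleotide supply. The labels do not say whether the replicate numbers pair the samples. Same-numbered libraries had correlations of -0.28 to 0.03, and 0 of 12 libraries correlated best with their own number. Such correlations cannot exclude a pairing by origin or preparation.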
